A study of Mus musculus with 7 samples.

Results

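The genes described here encode the machinery that starts anaphase: the activators Cdc20 and Fzr1 of the anaphase promoting complex (APC/C), its subunits Anapc1, Anapc2, Cdc16, Cdc23 and Cdc27, its ubiquitin-conjugating enzyme Ube2c, and the protease separase (Espl1) with its inhibitor securin (Pttg1). They were chosen by name, 10 of the 18951 genes in the table, and all 10 were present and passed the filter on low values. RNA was sequenced from pools of ovulated oocytes, 4 from Nlrp2-null females and 3 from wild-type (WT) females, all C57BL/6 and 4 weeks old. Each pool combined about 150 oocytes of 3 to 4 mice, taken from the oviduct and freed of cumulus cells with hyaluronidase. NLRP2 is a maternal effect protein stored in the egg, and the comparison asks which stored messages differ when females lack it. How the null allele was made is not stated in the labels.

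The APC/C is a large ubiquitin ligase that marks proteins for destruction by the proteasome. With CDC20 it destroys cyclin B and securin, which frees separase to cut the cohesin that holds chromosomes together. In oocytes this step separates homologous chromosomes in meiosis I and, after fertilization, sister chromatids in meiosis II. An ovulated oocyte waits in metaphase II with the APC/C held inactive by EMI2 (Fbxo43). Mouse oocytes also use the APC/C with FZR1, also called CDH1, to keep prophase arrest by lowering cyclin B1. Fully grown oocytes make almost no new RNA, so most oocyte messages are stored ones made during growth.

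The pools held 71073973 to 96330083 recovered reads each. The coefficient of variation of the 10 genes was 5.86 to 28.4% among null pools and 7.58 to 26.8% among WT pools, and this spread sets the precision of what follows. Nlrp2 itself stood at 1.96 to 107 normalized counts in null pools, against 15527 to 20130 in WT pools. The 18 oocyte markers, among them Gdf9, Bmp15 and the zona pellucida genes, had mean log2 levels of 14.67 to 14.80 in null pools and 14.73 to 14.75 in WT pools. Of 40 cumulus and granulosa markers 39 were in the table and none was at 0 in every pool. Their summed level was 142807 to 174571 normalized counts in null pools and 136618 to 166607 in WT pools, and their mean log2 level was 8.48 to 9.69 in null and 8.10 to 8.99 in WT pools. Rgs2 alone made up 42.7 to 52.4% of that sum in null and 48.3 to 59.2% in WT pools, so the sum is a poor measure of cumulus RNA; without Rgs2, left out after its values were seen, it was 67919 to 99807 in null and 57224 to 86208 in WT pools. Null 3 (9.32) and null 4 (9.69) had the highest mean log2 levels of all pools. Null 4 also had the highest mean of the 10 oviduct epithelium markers, 6.29, against 3.68 to 4.77 in the other pools. Of 8 blood and immune markers 4 were in the table, with a mean log2 level of 3.8 to 7.07 in null and 3.97 to 5.50 in WT pools and a summed level of 572 to 3004 in null and 477 to 949 in WT pools. Null 2 (7.07) and null 3 (6.56) stood above all WT pools in that mean. The 4 genes did not agree, so the mean is a poor measure of blood RNA. Null 4 had the lowest mean (3.8) and 0 of Lyz2 but the highest Cd52 (1439.8). Null 3 had the highest Lyz2 (2427.1). In such bulk pools fewer cells of a type and less RNA per cell cannot be told apart.

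The 10 messages were stored at very different levels, and the order of their means was the same in both genotypes. To compare genes, normalized counts (reads divided by a pool's size factor) were divided by the length of the gene's transcript with the longest coding sequence. Securin was highest, with Pttg1 at 25160.1 ± 2065 normalized counts per kb (SD, n = 4) in null pools and 26193 ± 3659 (SD, n = 3) in WT pools. Cdc27 followed at 16669 ± 977 per kb in null and 14984 ± 1136 in WT pools, then Ube2c at 5142 ± 468 and 5531 ± 1484. Cdc20 stood at 2603 ± 251 per kb in null and 2341 ± 252 in WT pools. Pttg1 lay at a mean percentile of 99.2 and Cdc27 at 98.5 among the levels per kb of 13748 protein-coding genes, so both belonged to the most abundant messages of the egg.

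The other 6 genes were lower. Anapc1 and Espl1 were neighbours whose pools overlapped, at 1889.8 ± 164 and 1860.1 ± 156 per kb in null pools and 1811 ± 216 and 1624 ± 300.5 in WT pools. Anapc2 (517 ± 121 in null, 556 ± 74.8 in WT pools), Cdc16 (360.3 ± 59.5 and 454 ± 87.0) and Fzr1 (350.2 ± 63.4 and 359 ± 32.5) formed a lower group in which each gene overlapped the next. Cdc23 was lowest at 219 ± 62.3 per kb in null and 220.3 ± 30.9 in WT pools, a mean percentile of 48.6. The highest member exceeded the lowest 115-fold in null and 119-fold in WT pools. Dividing by the summed length of all annotated exons instead exchanged the places of Ube2c and Cdc20 and those of Anapc1 and Espl1, and put Pttg1, still the highest, at 11926 in null and 12416 in WT pools.

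**Figure D1:**
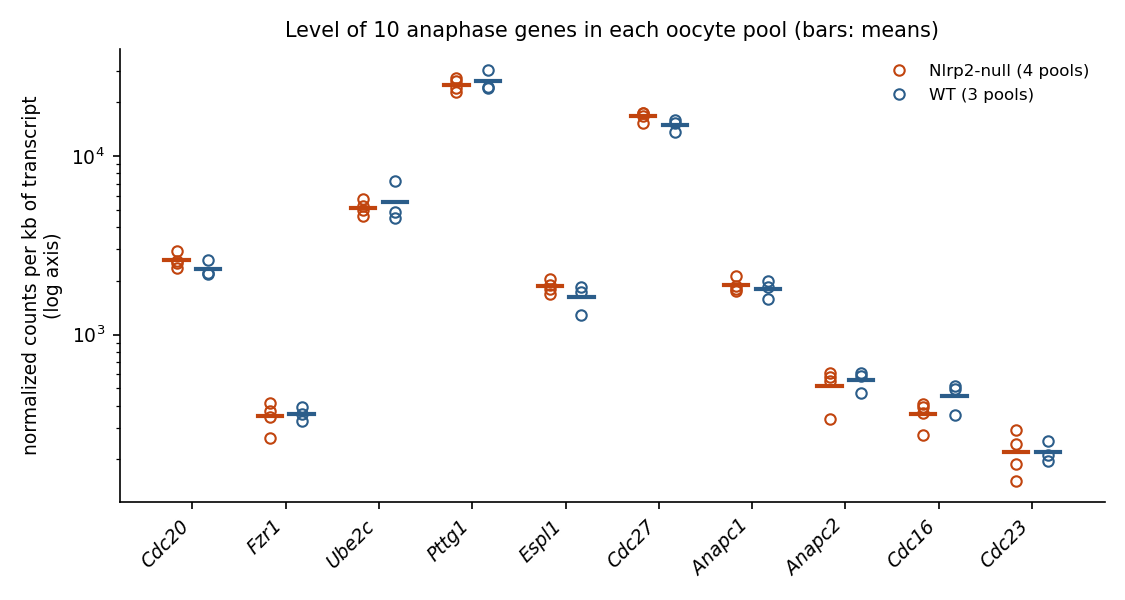
Normalized counts per kb of transcript (log axis) of the 10 genes in each of 4 Nlrp2-null pools (left, orange) and 3 WT pools (right, blue), with bars for group means. Pttg1 and Cdc27 lie highest and Cdc23 lowest in both genotypes, and the pools of the genotypes overlap for all 10 genes.

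The promoters of 3 of the genes carry the sequence that many genes of the late cell cycle share. The cell cycle genes homology region, known from dividing cells, has the letters TTTGAA and commonly lies close to the start with a CCAAT box upstream. RefSeq promoter entries (GRCm38.p6, 250 bases before to 50 after the RefSeq start) were found for 9 of the 10 genes and were searched on both strands. TTTGAA was in 3 of them, Cdc20, Espl1 and Ube2c, or 33.3%, against 17.9% of all 32851 promoters. CCAAT was in 5 of the 9, against 37.4% of all promoters. The same 3 genes held both motifs, against 6.95% of all promoters, and each of the 9 genes had 1 entry. Of 60 other pathway genes with an entry 17 held both (28.3%), counted per gene over any of its entries. A gene with several entries had more chances of a match, so that share and the 6.95% of single entries are not directly comparable. No TTTGAA match overlapped a CCAAT match in the listed genes. The last 150 bases before the RefSeq start are shown for the 3 genes and for Fzr1, the activator without TTTGAA in its entry. Both motifs are in capitals (ATTGG and TTCAAA are their other strand).
Cdc20, chr4:118437344-118437493, minus strand: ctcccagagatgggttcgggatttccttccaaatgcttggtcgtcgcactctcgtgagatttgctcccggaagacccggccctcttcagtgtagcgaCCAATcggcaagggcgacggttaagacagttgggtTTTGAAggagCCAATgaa
Espl1, chr15:102296143-102296292, plus strand: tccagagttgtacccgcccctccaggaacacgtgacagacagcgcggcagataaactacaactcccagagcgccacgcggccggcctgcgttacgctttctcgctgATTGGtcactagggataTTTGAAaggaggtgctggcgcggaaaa
Ube2c, chr2:164769779-164769928, plus strand: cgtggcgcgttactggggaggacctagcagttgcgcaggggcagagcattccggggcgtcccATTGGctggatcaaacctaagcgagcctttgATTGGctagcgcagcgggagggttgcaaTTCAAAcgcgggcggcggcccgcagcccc
Fzr1, chr10:81378371-81378520, minus strand: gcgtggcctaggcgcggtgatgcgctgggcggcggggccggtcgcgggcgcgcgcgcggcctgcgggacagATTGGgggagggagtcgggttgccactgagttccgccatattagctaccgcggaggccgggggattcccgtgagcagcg
In each of the 3 genes TTTGAA lay within the last 30 bases before the RefSeq start, at -18 in Cdc20, -27 in Espl1 and -29 in Ube2c (first base of the match, counted from that start). The gene positions given below come from GENCODE, and its starts differ. GENCODE begins Espl1 at 102296266 and Ube2c at 164769898, so their TTTGAA matches lie inside those gene spans. The Cdc20 match lies before its GENCODE start (118437352, minus strand). Nearly all of the Fzr1 stretch lies inside its GENCODE span, which starts at 81378516 on the minus strand. A match is a description of the letters only, and binding was not measured.

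None of the 10 genes passed the test between genotypes. limma on log2(normalized count + 1), adjusted by Benjamini-Hochberg over 15071 genes, called 0 of them at an adjusted p under 0.05, where 0.0664% of all genes were called. None had an unadjusted p under 0.05 (10.2% of all genes did), and edgeR (0.0464% of all genes called) and DESeq2 (1.25%) on recovered reads also called 0. The groups overlapped for all 10, whereas they did not overlap for 9.91% of all genes (null higher in 4.74%, null lower in 5.16%). The smallest limma adjusted p was 0.547, for Cdc27. The median log2 fold change of the 10 was -0.05, with 4 above 0, beside 0.00562 and 50.7% above 0 over all genes. The 95% intervals of the fold, null over WT, all lay between 0.579 and 1.38. These intervals bound each difference and do not show that the genotypes were alike.

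**Figure D2:**
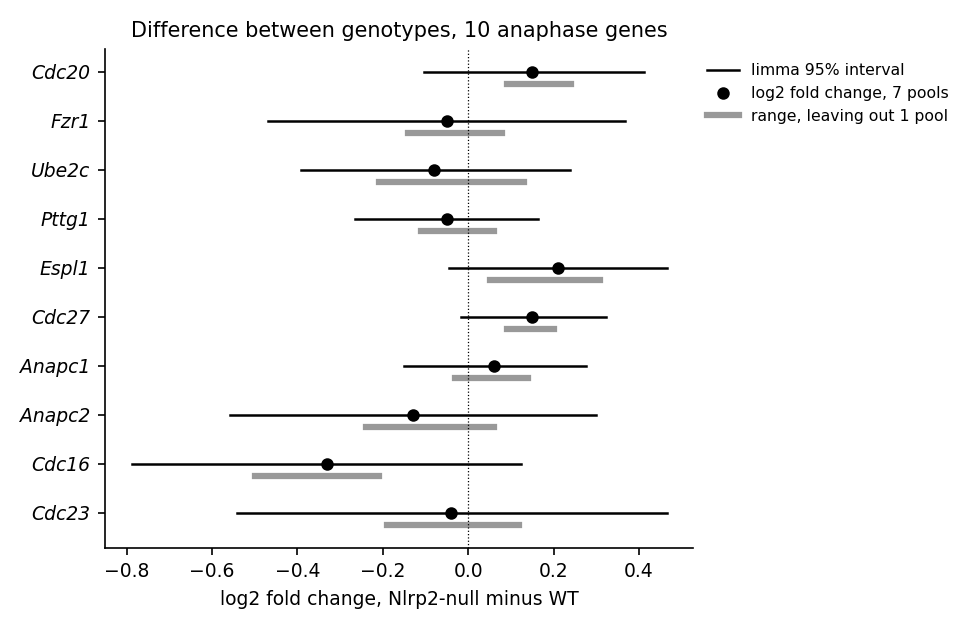
Log2 fold change (Nlrp2-null minus WT) of the 10 genes with the limma 95% interval (black) and the range of values when 1 pool at a time was left out (grey). Every interval crosses 0, and the leave-out ranges of Cdc20, Espl1 and Cdc27 stay above 0 and that of Cdc16 below 0.

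The activators did not pass. Cdc20 (chromosome 4, 118432901 to 118437352, minus strand, GRCm38, as for all positions here) binds the APC/C and recruits cyclin B and securin. It had 4229, 4642, 4503 and 5292 normalized counts in null pools 1 to 4, against 3925, 3946 and 4718 in WT pools 1 to 3. All 4 null pools lay above the WT mean, but WT 3 lay above null pools 1 to 3. Its exons share 53 bases with Elovl1 on the opposite strand (2636 ± 248 in null, 2659 ± 540.3 in WT pools). The means were 4666 ± 451 (SD, n = 4) and 4197 ± 452 (SD, n = 3), a fold of 1.11 (95% interval 0.931 to 1.33, limma adjusted p = 0.706). Fzr1 (chromosome 10, 81366222 to 81378516, minus strand) encodes the activator that takes over late in division and serves in prophase arrest. It had 1270.2, 1144, 811 and 1057 normalized counts in null pools, against 1198, 999 and 1097 in WT pools. Null 1 was its highest pool and null 3 its lowest, with the WT pools between them (fold 0.965, 95% interval 0.723 to 1.29, limma adjusted p = 0.951).

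Cdc20 messages outnumbered those of Fzr1 in every pool. The ratio of Cdc20 to Fzr1 per kb was 5.68, 6.92, 9.46 and 8.54 in null pools 1 to 4, against 5.59, 6.74 and 7.33 in WT pools. Null 3 and null 4 had the highest ratios and null 1 and null 2 lay among the WT pools. On the log2 scale of normalized counts the ratio averaged 2.14 ± 0.328 in null and 1.93 ± 0.20 in WT pools, a difference of 0.21 (p = 0.4, exact two-sided permutation test over 35 splits, where 0.0286 is the smallest possible; adjusted over 2 ratios, p = 0.4). Null 3 and null 4 carry library numbers in the same higher range as WT 3. Within the lower range the difference was 0.03 (2 null, 2 WT pools), within the higher it was 0.29 (2 null, 1 WT pool), and without null 3 and null 4 it was -0.05.

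Ube2c (chromosome 2, 164769898 to 164778822, plus strand) encodes the E2 enzyme that places the initial ubiquitin on APC/C substrates. It had 5545, 4799, 4475 and 5071 normalized counts in null pools, against 6990.5, 4334 and 4721 in WT pools. WT 1 stood above all other pools and WT 2 below them, so the null pools lay within the WT range. The fold was 0.948 (95% interval 0.762 to 1.18, limma adjusted p = 0.896), and the log2 fold change of -0.08 became 0.13 without WT 1. Exons of Ube2c share 592 bases with Tnnc2 on the opposite strand, a gene that held 1.96 to 30.3 normalized counts in null and 2.11 to 46.1 in WT pools.

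Securin and separase form the switch that the APC/C throws. Pttg1 (chromosome 11, 43420250 to 43426251, minus strand) encodes securin, which blocks separase until it is destroyed. It had 25942, 24963, 22869.6 and 21632 normalized counts in null pools, against 22676, 22985 and 28833 in WT pools. WT 3 was highest, null 4 was lowest, and the groups overlapped (fold 0.964, 95% interval 0.832 to 1.12, limma adjusted p = 0.893). Espl1 (chromosome 15, 102296266 to 102324357, plus strand) encodes separase, the protease that cuts cohesin. It had 13679, 11251, 12659 and 11949 normalized counts in null pools, against 8547, 12345 and 11537 in WT pools. The null mean of 12385 ± 1037 exceeded the WT mean of 10809.9 ± 2001, with WT 1 well below all other pools. The fold was 1.16 (95% interval 0.969 to 1.38, limma adjusted p = 0.590), and the log2 fold change of 0.21 came to 0.05 without WT 1.

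In every pool securin messages exceeded those of separase. The ratio of Pttg1 to Espl1 per kb was 13.3, 15.6, 12.7 and 12.7 in null pools 1 to 4, against 18.6, 13.1 and 17.6 in WT pools. All 4 null pools lay below the WT mean, but WT 2 lay among them. The size of the ratio depends on the length used: with the summed length of all annotated exons, chosen after the data were seen, it averaged 8.46 in null and 10.2 in WT pools, against 13.6 and 16.4 with the transcript length. The log2 ratio of normalized counts averaged 0.95 ± 0.14 in null and 1.21 ± 0.273 in WT pools, a difference of -0.26 (p = 0.2, exact two-sided permutation test; adjusted over 2 ratios, p = 0.4). It was -0.12 within the lower range of library numbers and -0.47 within the higher.

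**Figure D3:**
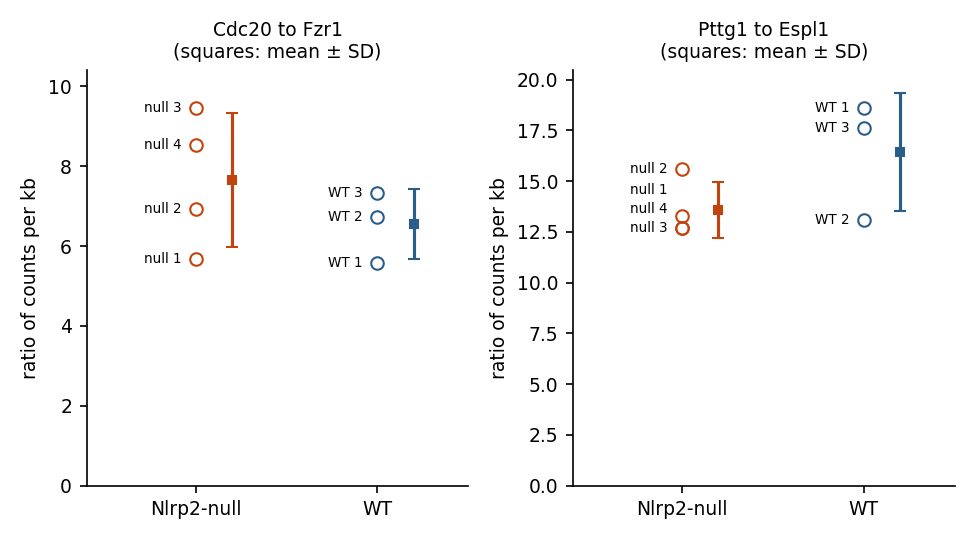
Ratio of counts per kb of Cdc20 to Fzr1 and of Pttg1 to Espl1 in each Nlrp2-null pool (left in each panel) and WT pool (right), with squares and bars for mean ± SD. The genotypes overlap for both ratios, and null 3 and null 4 have the highest ratios of Cdc20 to Fzr1.

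Among the listed APC/C subunits Cdc27 was by far the most abundant. CDC27, CDC16 and CDC23 are related proteins of tetratricopeptide repeats that form the arc on which activators dock. Cdc27 (chromosome 11, 104502745 to 104550620, minus strand) had 54778, 52896, 54780.4 and 48239 normalized counts in null pools, against 43364, 48351 and 50332 in WT pools. Null pools 1 to 3 lay above all WT pools, while null 4 lay below WT 2. The fold was 1.11 (95% interval 0.988 to 1.25, limma adjusted p = 0.547). Anapc1 (chromosome 2, 128610104 to 128687391, minus strand) encodes the largest scaffold subunit. It had 16068, 16728, 19017 and 15781 normalized counts in null pools, against 14131, 16499 and 17959 in WT pools, with the WT pools spread as widely as the null pools (fold 1.05, 95% interval 0.901 to 1.21, limma adjusted p = 0.867).

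The scarce subunits varied more between pools. Anapc2 (chromosome 2, 25272478 to 25285915, plus strand) encodes the cullin-like part of the catalytic core. It had 1731, 1646, 1017 and 1822 normalized counts in null pools, against 1415, 1840.0 and 1753 in WT pools (fold 0.914, 95% interval 0.679 to 1.23, limma adjusted p = 0.865). Null 3 was far below the other pools, which overlapped. Cdc16 (chromosome 8, 13757676 to 13781938, plus strand) had 837, 908, 634 and 938 in null pools, against 1137, 815 and 1181 in WT pools. All 4 null pools lay below the WT mean, although 3 of them stood above WT 2, and the fold was 0.796 (95% interval 0.579 to 1.09, limma adjusted p = 0.645). Cdc23 (chromosome 18, 34630951 to 34651735, minus strand) had 1211, 779, 626 and 1013 in null pools, against 806, 872 and 1053 in WT pools (fold 0.972, 95% interval 0.687 to 1.38, limma adjusted p = 0.969). The null pools of Cdc23 spanned a wider range than the WT pools and enclosed them. Its exons share 1271 bases with Kif20a on the opposite strand, which stood at 5767 ± 818 in null and 5866 ± 984 normalized counts in WT pools. If strand was not used in counting, Cdc23 may have gained or lost reads at the shared bases, which was not tested.

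Single pools recurred at the extremes. Fzr1, Anapc2, Cdc16 and Cdc23, the 4 genes of lowest level per kb, were each lowest in null 3, and Cdc20, Espl1, Anapc1 and Cdc27 were each lowest in WT 1. The share of all genes lowest in these pools was not counted, so these counts describe the pools and are not a trait of the listed genes. Without null 3 the log2 fold change of Fzr1 was 0.08, of Anapc2 0.06 and of Cdc23 0.12, against -0.05, -0.13 and -0.04 with all pools. Only Cdc20, Espl1, Cdc16 and Cdc27 had the same sign in both ranges of library numbers, at 0.17 and 0.05, 0.27 and 0.09, -0.14 and -0.62, and 0.23 and 0.03 on the log2 scale (lower, then higher range). Cdc23 differed most between the ranges, at 0.21 in the lower and -0.40 in the higher, which has 1 WT pool, and Pttg1 was at 0.16 and -0.37. The part of the library number range, of null 3 and of the cumulus and blood marker levels in these values was not tested further.

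The remaining core subunits showed the same uneven storage. Over all 14 core subunit genes the median was 572 normalized counts per kb in null and 610 in WT pools, from 16669 and 14984 for Cdc27 to 56.1 ± 30.7 and 57.2 ± 27.5 for Anapc11, the RING subunit that forms the catalytic core with ANAPC2. Below 1000 normalized counts per kb lay 8 subunits in null and 9 in WT pools. Anapc16 (5492 ± 448 in null, 5440.2 ± 275 in WT pools) came next to Cdc27. Anapc13 (117 ± 106 in null, 124 ± 123 in WT pools) came next to Anapc11, and the pools of both genes overlapped. These levels rest on 1 annotated transcript a gene (3229 bases for Anapc11), and a shorter message in the oocyte would raise the level per kb. Before division by length Anapc13 was the lower, at 85.4 normalized counts in null and 90.1 in WT pools, against 181 and 185 for Anapc11.

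**Figure D4:**
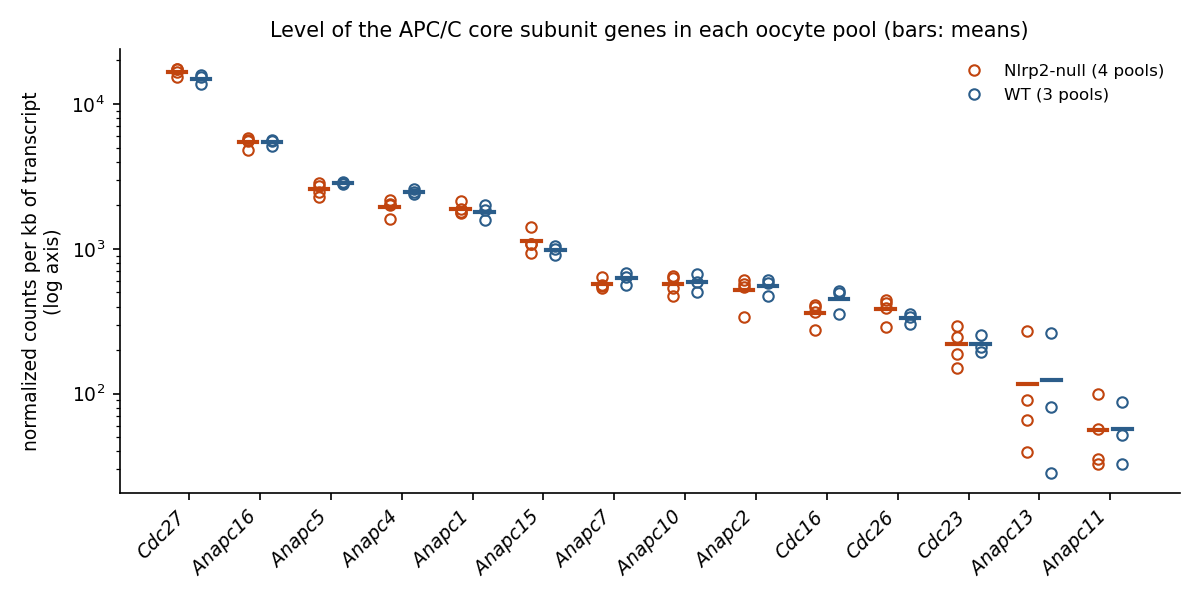
Normalized counts per kb of transcript (log axis) of the 14 APC/C core subunit genes in 4 Nlrp2-null pools (left, orange) and 3 WT pools (right, blue), ordered by WT mean, with bars for group means. Levels run from Cdc27 (16669 in null, 14984 in WT pools) to Anapc11 (56.1 and 57.2), and only for Anapc4 do all null pools lie below all WT pools.

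Around the 10 genes, 74 other pathway genes in 5 lists were tested and limma called none of them. Over all genes limma called 0.0664%, edgeR 0.0464% and DESeq2 1.25%, and 10.2% had an unadjusted p under 0.05, 795 of them higher and 743 lower of 15071. Of 9 other core subunits 0 passed in limma, edgeR or DESeq2, and 1 had an unadjusted p under 0.05, near the share of all genes. Anapc4, a scaffold subunit, was at 8426, 7810.4, 6161 and 7716 normalized counts in null pools, against 9479.7, 9993 and 9239 in WT pools. All its null pools lay below all WT pools, which held for 5.16% of all genes, a difference of -0.35 on the log2 scale (SE 0.112, adjusted p = 0.292 in limma and 0.112 in DESeq2). Anapc5, another scaffold subunit, was at 7127 ± 693 in null and 7865 ± 155 in WT pools (limma adjusted p = 0.674), and Cdc26, which stabilizes CDC16, at 1673 ± 299 and 1434 ± 108 (limma adjusted p = 0.732).

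Of 9 ubiquitin pathway genes 0 passed in limma, edgeR or DESeq2, and 1 had an unadjusted p under 0.05, beside 10.2% of all genes. That gene was Uba1, the ubiquitin-activating E1 enzyme, at 33158 ± 1587 in null and 38689.8 ± 2192 in WT pools (a log2 difference of -0.22 with SE 0.0788, limma adjusted p = 0.362), with all null pools below all WT pools, as for 5.16% of all genes. Ube2s, the E2 enzyme that extends chains on APC/C substrates, had 2627, 2365, 2424 and 4619 in null pools, against 2184, 2095 and 2477 in WT pools. Its null 4 pool stood apart from the other pools, and the log2 fold change of 0.36 (limma adjusted p = 0.571) was 0.14 without it. Ube2d1 was at 1497 ± 251 in null and 1831 ± 312 in WT pools (limma adjusted p = 0.619).

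Of 12 inhibitor and spindle checkpoint genes 0 passed and 0 had an unadjusted p under 0.05 in limma, and edgeR and DESeq2 called 0. Fbxo43, the EMI2 gene that holds the metaphase II arrest, was at 27041 ± 3026 in null and 25854 ± 3662 in WT pools. Fbxo5, the EMI1 gene, was at 4310.1 ± 47.6 in null and 3844 ± 425 in WT pools (log2 fold change 0.17, limma adjusted p = 0.654). Bub1b and Mad2l1, which encode the checkpoint proteins BUBR1 and MAD2 that restrain CDC20, were at 85273 ± 19284 and 31627 ± 2466 in null pools and at 85009 ± 12869 and 30283 ± 6128 in WT pools. Bub1, a checkpoint kinase gene, had a log2 fold change of -0.26 (SE 0.128, limma adjusted p = 0.509) and Ttk, the kinase gene of MPS1, of -0.15 (SE 0.0876, limma adjusted p = 0.605). Per kb, Bub1b reached 23248 ± 5257 in null and 23176 ± 3508 in WT pools, far above Cdc20 (2603 ± 251 and 2341 ± 252), which its protein binds.

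Of 25 APC/C substrates limma called 0, with 1 higher and 3 lower at an unadjusted p under 0.05 (10.2% of all genes), and edgeR called 0. The median log2 fold change was -0.06, with 5 of 25 above 0, beside 50.7% of all genes. The other lists also had fewer genes above 0 than that share. It was 44.4% for the other core subunits and 44.4% for the ubiquitin pathway genes. For the inhibitor and checkpoint genes it was 33.3%, and for the tested cohesin genes 36.8%. The medians of the 5 lists lay between -0.08 and -0.01, within the 25th to 75th percentile of all genes (-0.201 to 0.29). Whether these shares differ from that of all genes was not tested. Ccnb3 encodes cyclin B3, needed in mice for oocytes to enter anaphase I. It stood at 7526 ± 317 in null and 10200.2 ± 732 in WT pools, with all null pools below all WT pools. The log2 difference of -0.44 (SE 0.0963) had an adjusted p of 0.114 in limma, 0.125 in edgeR and 0.00172 in DESeq2, which called it and no other gene of the 5 lists; DESeq2 called 1.25% of all genes. Ccnb1, the cyclin partner of CDK1 that CDC20 targets, was at 69403 ± 5896 in null and 70334 ± 8463 in WT pools (limma adjusted p = 0.969). Ccnb2 was at 6877 ± 473 in null and 8727 ± 1377 in WT pools (limma adjusted p = 0.359). Prc1, a gene for a spindle midzone protein, was at 42841 ± 6287 and 34105 ± 4373 (limma adjusted p = 0.355) and overlaps Rccd1 on the opposite strand, and Nusap1, a spindle microtubule gene, was lower in all null pools than in any WT pool, as the other of the 2 substrates of 25 without overlap, beside 9.91% of all genes.

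Of 19 tested genes of cohesin, which separase cuts, and of its loaders and protectors, limma called 0, with 1 higher and 2 lower at an unadjusted p under 0.05 (10.2% of all genes), and edgeR and DESeq2 called 0. Smc1b, the meiotic SMC1 subunit, was at 4748 ± 496 in null and 6043 ± 503 in WT pools (a log2 difference of -0.35 with SE 0.116, limma adjusted p = 0.317). Pds5b, a cohesin regulator, was at 5160.5 ± 379 in null and 4282 ± 217 in WT pools (log2 fold change 0.27, limma adjusted p = 0.432), and Sgol2b at 2929 ± 326 and 3650.2 ± 581 (log2 fold change -0.31, limma adjusted p = 0.473). All null pools lay on one side of all WT pools for 5 of the 19 genes, 2 higher and 3 lower, beside 9.91% of all genes (4.74% higher, 5.16% lower). Among the 3 lower was Rad21l, a scarce message at 93.8 ± 47.1 in null and 184 ± 10.6 in WT pools. Its log2 difference was -1.16 (SE 0.554, limma adjusted p = 0.499). Rec8, the meiotic kleisin and the known target of separase in oocytes, was listed at 0 in all pools but null 2, which held 1.02 normalized counts. It did not pass the filter, and no level is read from it.

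**Figure D5:**
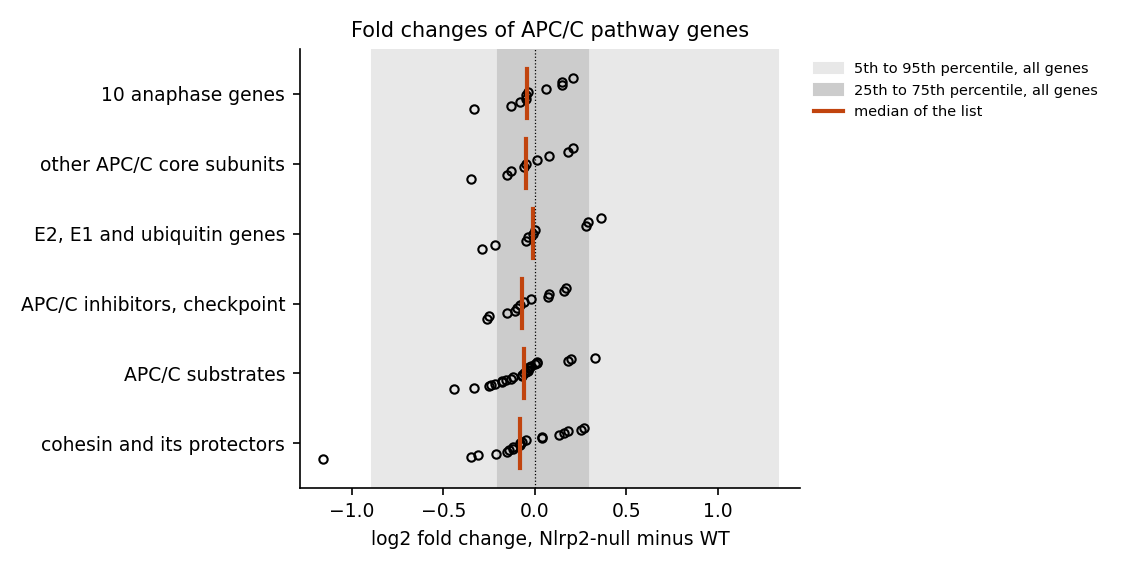
Log2 fold change (Nlrp2-null minus WT) of every tested gene of the 10 and of 5 pathway lists, with a bar for each list's median. The light and dark bands span the 5th to 95th and the 25th to 75th percentile of all 15071 genes; the list medians lie between -0.08 and -0.01.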

How the data were processed

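Per the file headers and names, the authors deposited a gene table of signal values, namely read counts per gene symbol divided by a DESeq2 size factor per pool. Dividing a pool's values by its smallest value above 0 gave whole reads for 100% of values (tolerance 0.01). The submitters' processing notes list HOMER, HTSeq, DESeq, DESeq2 1.22.2, featureCounts 1.5.0-p1, STAR 2.5.0a and TopHat2 2.0.9, and name GRCm38 and mm10 as builds. The role of each tool and the use of strand are not stated there. A deposited transcript table without names for the listed genes was not used. Positions, lengths and overlaps came from GENCODE M21 (GRCm38): 4 of the 10 genes share exon bases with a gene on the opposite strand (Cdc20, Fzr1, Cdc23 and Ube2c), and so do 21 of the other pathway genes with another gene.

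The test was limma 3.58.1 with a variance trend (R 4.3.3), Nlrp2-null minus WT, on values log2-transformed after adding 1, over 15071 genes with a mean of at least 10, without covariates, Benjamini-Hochberg threshold 0.05. The pseudocount shrinks fold changes of low genes. Fits, including edgeR 4.0.16 and DESeq2 1.42.0, were tested on simulated data. Pools served as replicates, since each came from its own mice as far as the labels say; no pair of a group matched within sampling noise (chi-square over its degrees of freedom, 38.2 or more). Same-numbered pools were checked for pairing. The genes, lists, tests and alternatives were chosen with earlier results of these data known. Named in each list were the 3 genes of smallest p and 8 direct regulators; Nusap1 was named after its values were seen. Alternatives changed the pseudocount, filter, scaling, variance model, covariates, tool or pools.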

Additional observations from a re-analysis of the deposited data

Results flagged for a closer look

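Among 35 groups of 4 null pools examined, 1 had a pool set apart by more than Dixon's 95% limit, which chance alone gives in about 1 of 20 groups. Ube2s, the chain-extending E2 enzyme gene, held 4619 normalized counts in null 4, and the gap to the next pool was 0.884 of the range of the null pools. Null 4 also had the highest mean log2 levels of cumulus markers (9.69) and of oviduct epithelium markers (6.29), and Ube2s shares 183 exon bases with Rpl28 on the opposite strand. Their part in this value was not tested.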

How the results depend on the processing

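Under 22 alternative fits, no value of the 10 genes passed the threshold (0 of 220, smallest adjusted p 0.386). Cdc20, Espl1, Cdc16 and Cdc27 kept their direction in every fit and the other 6 did not (17 of 220 values). Single pools still moved those 4: Cdc20 (0.15) was 0.09 without null 4 and 0.24 without WT 3, Espl1 (0.21) 0.05 without WT 1, Cdc16 (-0.33) -0.21 without null 3 and -0.50 without WT 2, and Cdc27 (0.15) 0.09 without WT 1. Pool quality weights gave 0.03 for Fzr1 (log2 fold change). A covariate of cumulus marker level gave 0.01 for Fzr1, 0.05 for Pttg1 and 0.07 for Cdc23. Leaving out null 3 and null 4 gave 0.14 for Fzr1, 0.04 for Pttg1, 0.03 for Anapc2 and 0.10 for Cdc23, and -0.05 for the log2 ratio of Cdc20 to Fzr1. Leaving out 1 pool at a time gave -0.14 to 0.08 for Fzr1, -0.11 to 0.06 for Pttg1, -0.03 to 0.14 for Anapc1, -0.24 to 0.06 for Anapc2, -0.19 to 0.12 for Cdc23 and -0.21 to 0.13 for Ube2c. The cause was not tested. The comparison on the second deposited table was not run, since that table names none of the genes.

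The replicate numbers did not pair the pools: deviations of same-numbered pools correlated at -0.163, 0.0192 and -0.0121, and no pool correlated best with its own number. With a replicate block, in which null 4 has no partner and adds nothing to the difference, 1 gene of all was called. Over all genes 10 were called, and 6 with equal medians, 68 with pool quality weights, 188 with DESeq2, 0 without a variance trend (1252 at an unadjusted p under 0.05), 0 without null 3 and null 4 (1080), and 2 (without null 3) to 16 (without null 1) when 1 pool was left out, with 4 without null 4 or WT 2 and 5 without WT 3. Of the 25 substrates 1 was called with pool quality weights (Ccnb3, adjusted p = 0.0432), 1 by DESeq2 (Ccnb3) and 1 in the fit with cumulus marker level as covariate (Prc1, 0.54, adjusted p = 0.00559), where 15 of all genes were called.

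Among regulators, Bub1b (-0.02) came to 0.09 with pool quality weights, 0.05 with the library number range, 0.27 with the cumulus covariate, 0.16 with the block, 0.01 in edgeR, 0.0048 in DESeq2 and 0.23 without null 3 and null 4, and to between -0.11 and 0.16 without 1 pool. Ccnb1 (-0.02) came to 0.0014 with weights, 0.09 with the cumulus covariate, 0.01 with the block and 0.08 without null 3 and null 4, and to between -0.11 and 0.07 without 1 pool. Without 1 pool Fbxo43 ran from -0.05 to 0.15 and Mad2l1 from -0.06 to 0.23.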

Other observations

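The 10 genes did not move as a unit across pools. Pearson correlations of their log2 levels over the 7 pools, which share libraries and scaling, ran from -0.82 (Anapc1 with Ube2c) to 0.82 (Espl1 with Cdc27) over 45 pairs, with a median of 0.18 and 28 pairs above 0. Among 10544 genes with a mean of at least 100, those most like Cdc20 over the 7 pools were Sh2b3 (r = 0.961), Rassf4 and Tfcp2l1, those most like Fzr1 were Emp2 (r = 0.978), Naa25 and Fbp1, those most like Espl1 were Chrng (r = 0.986), Rcan3 and Tnks, and those most like Pttg1 were Ccdc91 (r = 0.953), Phf11d and Cul5. With 7 pools and so many candidates, 17 to 53 genes reached r above 0.9 for each, so these names are a description only.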
